A study of Homo sapiens with 60 samples.

Results

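HCC827 persisters and their DMSO controls make up 6 of the 60 RNA-seq libraries of the series. The libraries were picked by their sample labels, with earlier results of these data known. All 19712 genes of the count table were considered, of which 13919 passed a filter on low counts. HCC827 is a human lung adenocarcinoma line whose growth depends on a mutant EGFR. Persisters (drug-tolerant persisters, DTPs) were HCC827 cells kept in 500 nM osimertinib, a kinase inhibitor made for mutant EGFR, for 21 days and harvested without removal of the drug (n = 3). The DMSO group was parental HCC827 held in drug-free medium for 21 days and then given the DMSO vehicle for 24 h (n = 3). Besides those groups, 3 acute libraries (parental cells, the same 21 days without drug, then 500 nM osimertinib for 24 h) and the 18 DTP and DMSO libraries of the EGFR-mutant lines PC9, H1975 and HCC2935, treated alike, were used for comparison. Levels in HCC827 DTPs after a short washout (24 h without drug) and a long washout (4 days) are given without a test. All groups are cultures of established lines, described as biological triplicates, and each line is a single model of its kind.

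The 6 libraries held 19.1 to 22.5 M estimated counts, and the 10 most counted genes took 6.67% to 10.2% of them. Levels are counts per M counts of the library after TMM normalization (CPM), listed in the order of replicates 1, 2 and 3, and a gene was called at an edgeR adjusted p under 0.05. Among markers of the lung epithelium, KRT7, KRT8, KRT18 and KRT19, keratins of simple epithelium, had at least 658 TPM in each of the 6 libraries. The adhesion gene EPCAM had 429 to 508 TPM under DMSO and 91.7 to 203 TPM in DTPs. CDH1, another, had 309 to 346 and 54.9 to 166 TPM. NKX2-1, also on that list, was not in the count table. The other 6 markers summed to 8229 to 10635 TPM under DMSO and 3345.5 to 5892 TPM in DTPs. Such markers cannot tell HCC827 from another epithelial line. All 8 genes picked from the DMSO libraries as high in HCC827 alone among the 4 lines reached 1 TPM in each DTP library. Of the genes picked the same way for the other lines, 1 of 16 for PC9 did so in DTP replicate 2, and 0 of 9 for H1975 and 0 of 12 for HCC2935 in any. As these are bulk samples, fewer cells of a kind and less RNA per cell cannot be told apart.

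EGFR signals through RAS, RAF and ERK and through PI3K and AKT, and in EGFR-mutant lung cancer cells these pathways drive division and hold back apoptosis. ERK switches on its own inhibitors, the DUSP phosphatases and the SPRY proteins, so that their mRNA follows ERK activity. Persisters are known as slow-cycling survivors of a drug that kills most cells, and a loss of epithelial character, with a gain of mesenchymal genes, is one of the changes described in cells that survive EGFR inhibition.

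Of 13919 genes tested, 5104 were called (36.7%), with 2703 higher (19.4%) and 2401 lower (17.2%) in DTPs than under DMSO. The groups did not overlap, with all DTP libraries higher, for 3600 genes (25.9%), and with all DTP libraries lower for 3454 genes (24.8%). Higher and lower calls differed in size. At least 4-fold changes were called higher for 745 genes and lower for 76, and at least 16-fold changes for 198 and 2 genes. The median log2 fold change over all genes tested was 0.02. The counts of gene lists given further on are read against these shares. Leaving out any 1 library gave 3816 to 4819 called genes. DTP replicate 1 stood apart from the other DTPs for epithelial and some matrix genes and DTP replicate 2 for a few secreted and immediate early genes. Values without them are given beside some of the genes concerned, and not beside the matrix genes. Among the controls, DMSO replicate 2 stood apart for some lists. Its median ERK-dependent gene lay 0.26 from the DMSO mean (log2 of CPM + 1), against -0.11 and -0.19 in DMSO replicates 1 and 3. For ribosome biogenesis the value was 0.32, against -0.13 and -0.21.

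Most of the genes with the largest rises were nearly silent under DMSO. KIT, the receptor for stem cell factor, had 0.102, 0 and 0.0441 CPM under DMSO and 6.80, 12.3 and 27.6 CPM in DTPs. With 3 reads over the DMSO libraries against 991 in DTPs, the depth-adjusted ratio was 347 (95% exact binomial interval 118 to 1687, counting error only). GUCY1A2, a subunit of the nitric oxide receptor guanylate cyclase, had 3 DMSO reads in all and 2.89, 21.7 and 16.9 CPM in DTPs, a ratio of 307 (105 to 1491). For both genes DTP replicate 1 was the lowest of its group and still far above every DMSO library.

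GLI3, a transcription factor of the hedgehog pathway, stood at 0, 0.188 and 0.0883 CPM under DMSO and rose to 16.3, 16.5 and 15.3 CPM, with little spread between the DTP libraries (adjusted p = 4.84e-05). IGFBP5, a secreted binder of insulin-like growth factors, rose from 0, 0.0939 and 0.132 CPM to 31.4, 26.8 and 42.3 CPM (adjusted p = 2.07e-05). ACKR3, a chemokine receptor that scavenges CXCL12, rose from 0.102, 0.0469 and 0.132 to 49.3, 15.7 and 28.5 CPM (adjusted p = 6.26e-05). Under DMSO these genes had between 5 and 6 reads in all, so the size of their change rests on few control reads, while its direction held in every library. SFMBT2, a Polycomb-group protein, rose to 4.11, 35.0 and 46.5 CPM from 5 DMSO reads in all, and RNF150, a RING finger protein, to 16.5, 12.6 and 16.1 CPM from 8.

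IGFN1, a protein known from skeletal muscle, was measurable in both groups, with 3.51, 0.751 and 1.68 CPM under DMSO and 86.5, 371 and 450.4 CPM in DTPs (log2 fold change of 7.27 ± 0.75 (SE), adjusted p = 2.22e-04). KIF26A, an atypical kinesin, had 0.102, 0.329 and 0.265 CPM under DMSO and 40.5, 44.4 and 60.6 CPM in DTPs (log2 fold change of 7.65 ± 0.33 (SE), adjusted p = 1.42e-05). Both rose in all 3 DTP libraries, IGFN1 with replicate 1 well below the others and KIF26A evenly. The collagen COL20A1 rose from 0.356, 0.141 and 0.132 to 41.8, 28.2 and 74.5 CPM, and COL3A1, the chain of type III collagen, to 22.9, 7.30 and 6.28 CPM from 4 DMSO reads in all. ALPK2, an alpha kinase, rose from 0.203, 0.329 and 0.132 to 6.39, 19.8 and 57.1 CPM. The COL3A1 level in replicate 1 and the ALPK2 level in replicate 3 were the highest of their groups.

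Among genes averaging 5 CPM or more whose groups did not overlap, the deepest fall was that of FGFBP1, a secreted carrier that frees fibroblast growth factors from the matrix, with 23.0, 21.4 and 17.7 CPM under DMSO and 0.812, 0.821 and 2.02 CPM in DTPs (log2 fold change of -4.07 ± 0.37 (SE), adjusted p = 1.30e-04). PTGS1, the constitutive cyclooxygenase, had 65.3, 47.5 and 50.02 CPM under DMSO and 2.54, 6.57 and 2.47 CPM in DTPs (log2 fold change of -3.81 ± 0.37 (SE), adjusted p = 1.79e-04). DDIT4, an inhibitor of mTORC1 induced by stress and hypoxia, had 924, 529 and 625 CPM under DMSO and 77.9, 82.2 and 87.6 CPM in DTPs (log2 fold change of -3.07 ± 0.21 (SE), adjusted p = 4.84e-05). For these genes every DTP library was below every DMSO library, and the DTP libraries lay closer together for DDIT4 than for FGFBP1 and PTGS1. B3GALT5 and GALNT3, glycosyltransferases, fell by 2.96 and 2.93 on the log2 scale, the mucin MUC22 by 3.09, BCL2L15, a distant BCL2 relative, by 3.03, MYH15, a myosin heavy chain, by 2.88, PROM2, a membrane protein of epithelial cells, by 2.86 and PDLIM2, an adaptor of the actin skeleton, by 2.80.

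**Figure D1:**
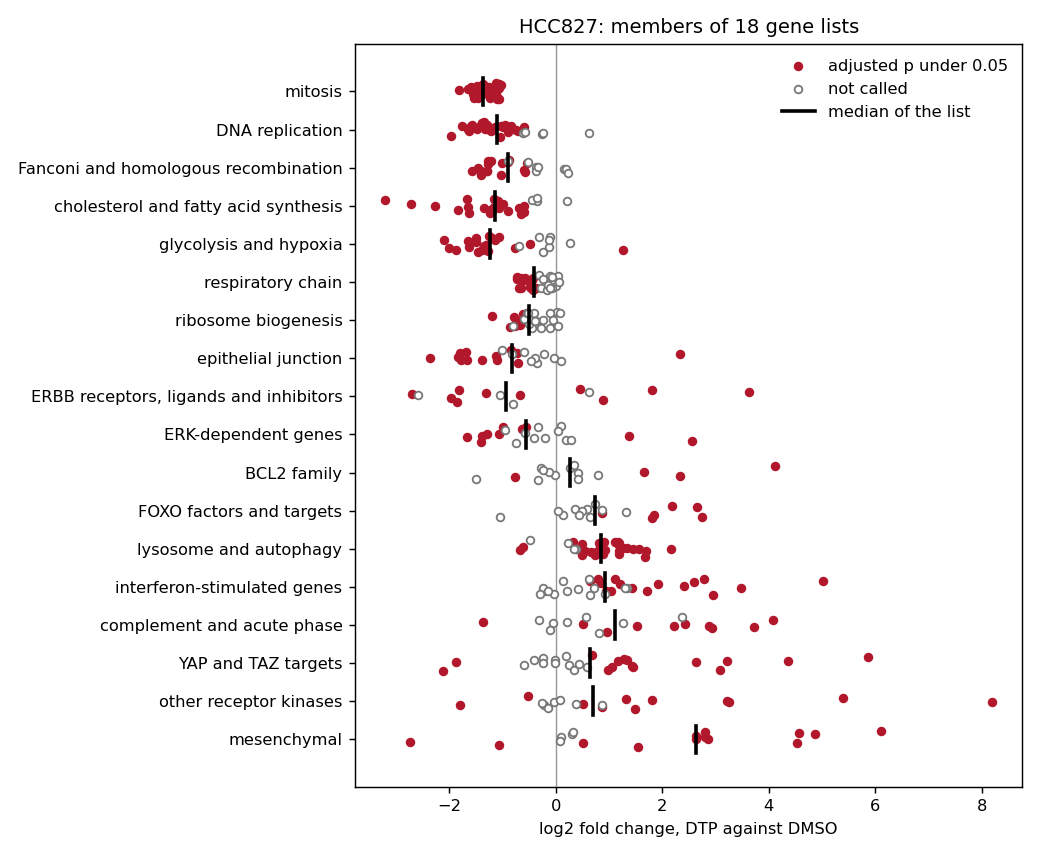
Each point is a tested member of a gene list, placed by its log2 fold change between HCC827 DTPs and DMSO (3 libraries each), filled red where the adjusted p was under 0.05 and open otherwise, and the black bar marks the median of the list. All 35 mitosis genes are filled and left of 0, while the mesenchymal list reaches from -2.75 to 6.11.

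The first question was what had become of the drugged pathway itself. Of 14 tested ERBB receptors, ligands and inhibitors, 4 rose and 6 fell, with a median log2 fold change of -0.93. EGFR itself, the drug target, had 8439, 9839 and 7387 CPM under DMSO and 5309, 5355 and 5417 CPM in DTPs (log2 fold change of -0.67 ± 0.13 (SE), adjusted p = 0.00433). Every DTP library was below every DMSO library, and the DTP libraries hardly differed from each other. ERBB2, the receptor that has no ligand of its own and pairs with EGFR, had 170.1, 143 and 195 CPM under DMSO and 259, 206 and 225 CPM in DTPs, with a log2 fold change of 0.44 (adjusted p = 0.0416), a call that was lost, with adjusted p of 0.0550 to 0.118 without any 1 of DMSO replicate 1, DMSO replicate 2, DTP replicate 1, DTP replicate 2 and DTP replicate 3. ERBB3, the partner that links ERBB dimers to PI3K, had 95.2, 90.0 and 121 CPM under DMSO and 80.5, 43.5 and 23.1 CPM in DTPs and was not called (log2 fold change -1.06, adjusted p = 0.0506). DTP replicate 1 lay near the DMSO range for ERBB3, and without it the value was -1.62 (adjusted p = 0.00247).

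Among EGFR ligands AREG, EREG, TGFA and BTC fell and HBEGF rose. AREG, amphiregulin, had 135, 142 and 147 CPM under DMSO and 27.1, 19.2 and 19.1 CPM in DTPs (log2 fold change of -2.69 ± 0.16 (SE), adjusted p = 3.14e-05). EREG, epiregulin, fell from 302, 328 and 298 to 55.5, 89.9 and 90.9 CPM (log2 fold change -1.97, adjusted p = 1.78e-04). TGFA and BTC, transforming growth factor alpha and betacellulin, fell by 1.81 and 1.86 on the log2 scale. HBEGF, the heparin-binding EGF-like factor, had 5.18, 13.1 and 3.93 CPM under DMSO and 99.3, 66.5 and 110.4 CPM in DTPs (log2 fold change of 3.63 ± 0.42 (SE), adjusted p = 4.12e-04). Its lowest DTP library held 5.06 times the CPM of its highest DMSO library. EGF itself was low in both groups, at 0.704 to 2.61 CPM, and neither it, NRG1 (the ERBB3 ligand neuregulin, -0.80) nor EPGN (epigen, -2.58) was called. Single libraries turned both of the latter: NRG1 was called without DMSO replicate 1 (-1.01, adjusted p = 0.0487) and EPGN without DTP replicate 1 (-4.74, adjusted p = 0.0236), and without DMSO replicate 2 their values were -0.53 and -1.37. Of the inhibitors, ERRFI1, which binds and blocks the EGFR kinase domain, fell by 1.32 (adjusted p = 0.00129), while LRIG1, a membrane protein that lowers ERBB receptor levels, and its relative LRIG3 rose by 1.81 and 0.88.

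ERK-dependent genes were only partly lower than under DMSO. Of 20 tested, 8 fell and 2 rose, with a median of -0.57. FOSL1, an AP-1 subunit, had 349, 513 and 285 CPM under DMSO and 95.1, 145 and 123 CPM in DTPs (log2 fold change of -1.66 ± 0.23 (SE), adjusted p = 9.85e-04). ETV4, an ETS factor, fell by 1.41 (adjusted p = 0.00283) and DUSP5, a nuclear ERK phosphatase, by 1.39 (adjusted p = 0.00225). DUSP4, another nuclear phosphatase of ERK, went the other way, with 14.5, 20.1 and 14.2 CPM under DMSO and 50.7, 41.8 and 34.6 CPM in DTPs (log2 fold change of 1.38 ± 0.20 (SE), adjusted p = 0.00110), as did the ephrin receptor EPHA4, with 4.57, 6.67 and 5.34 CPM under DMSO and 21.0, 31.6 and 45.5 CPM in DTPs (log2 fold change of 2.56 ± 0.30 (SE), adjusted p = 3.97e-04). For both, every DTP library lay above every DMSO library. DUSP6 and SPRY4, the cytoplasmic ERK phosphatase and a Sprouty inhibitor, were not called, at -0.34 (adjusted p = 0.480) and -0.96 (adjusted p = 0.0768). DUSP6 in DTP replicate 2 lay above the DMSO range, and without that library its value was -0.97 (adjusted p = 0.0111).

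Set against 24 h of the same dose of drug, most of these genes were higher in DTPs. Of 14083 genes tested, 4156 were called between DTPs and acute osimertinib (29.5%), 2211 higher (15.7%) and 1945 lower (13.8%) in DTPs. Of 20 ERK-dependent genes, 13 were higher and 0 lower in DTPs, with a median of 1.26 against 0.00 over all genes. SPRY4 stood at 0.168, 0.335 and 0.703 CPM under acute drug and 4.81, 4.18 and 2.68 CPM in DTPs, normalized over all HCC827 libraries (log2 fold change of 3.24 ± 0.53 (SE), adjusted p = 0.00400). DUSP6 stood at 1.17, 0.812 and 3.75 CPM under acute drug and 10.7, 26.1 and 9.88 CPM in DTPs (log2 fold change of 3.02 ± 0.61 (SE), adjusted p = 0.00940). The acute and DTP libraries did not overlap for either gene. ETV1, an ETS factor, differed by 3.58 (adjusted p = 0.00418), ETV4 by 2.1 (adjusted p = 0.00750) and FOSL1 by 1.61 (adjusted p = 0.00347). The number of genes called between these groups fell to 2328 without acute replicate 1, 2442 without acute replicate 2 and 2576 without acute replicate 3. Among the calls of genes named in this text, 20, 14 and 18 were lost in that order and 77, 83 and 79 kept. Which genes these were is not listed here.

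**Figure D2:**
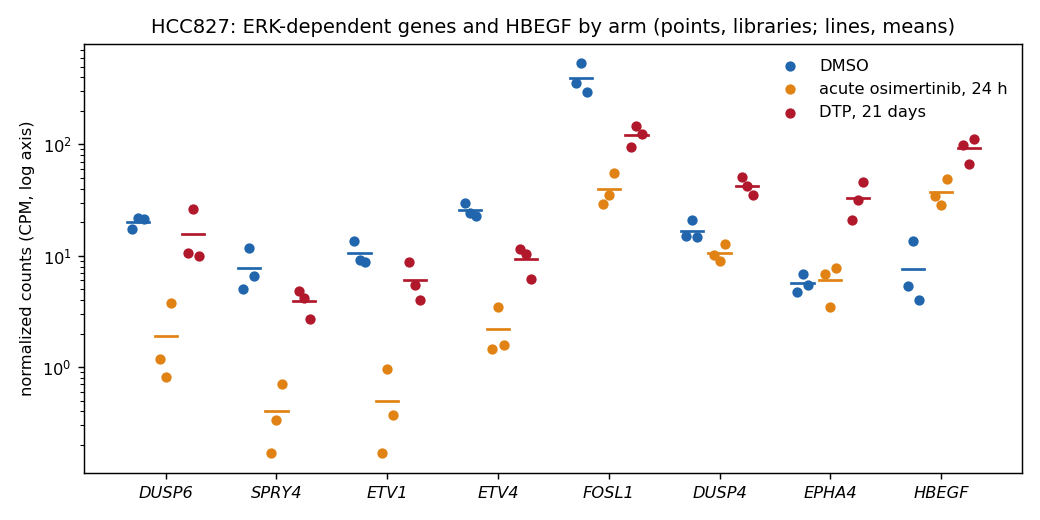
Points are the normalized counts (CPM, log axis) of 7 ERK-dependent genes and HBEGF in each HCC827 library of the DMSO, acute and DTP groups (n = 3 each), and lines are group means. DUSP6, SPRY4, ETV1 and ETV4 are lowest under acute drug, and DUSP4 and EPHA4 are highest in DTPs.

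Of 18 tested receptor kinases outside the ERBB family (with the insulin receptor substrates), 9 rose and 2 fell, with a median of 0.69. AXL, a receptor of the TAM family, had 21.5, 20.2 and 14.4 CPM under DMSO and 70.7, 190.1 and 260.3 CPM in DTPs (log2 fold change of 3.22 ± 0.42 (SE), adjusted p = 7.34e-04). DTP replicate 1 was the lowest of its group and lay above every DMSO library. ROS1, an orphan receptor kinase, rose from 0.914, 1.08 and 1.06 to 17.9, 4.64 and 6.64 CPM (log2 fold change 3.25, adjusted p = 0.00192), and PDGFRB, a platelet-derived growth factor receptor, to 6.34, 1.01 and 1.33 CPM from 4 DMSO reads in all. In both, replicate 1 was the highest DTP library. MST1R, the receptor of macrophage-stimulating protein, fell by 1.81 (adjusted p = 6.90e-05). MET, the hepatocyte growth factor receptor, had 1103, 1054 and 1008 CPM under DMSO and 625, 956 and 618 CPM in DTPs, -0.53 (adjusted p = 0.0439), and its call was lost, with adjusted p of 0.0701 to 0.141 without any 1 of DMSO replicate 1, DMSO replicate 2, DMSO replicate 3, DTP replicate 1 and DTP replicate 3, while without DTP replicate 2 the value was -0.79.

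Cell cycle genes fell. All 35 mitosis genes were lower in DTPs, with a median of -1.37, and 29 of 34 replication genes were lower and 0 higher, with a median of -1.10. Where a list given here had 0 calls in a direction against DMSO by edgeR, 0 members passed an unadjusted p under 0.05 in that direction and 0 were called by DESeq2, except 1 fall by both counts among FOXO genes and 1 rise by both among airway secretory genes. Much of the transcription of mitotic genes is known to depend on the CHR element, searched as TTTGAA, and on the box named for its letters CCAAT. That of replication genes is known to depend on E2F sites, searched as TTTGGCG and also with the core letters changed, as TTTCCCG and, last of the set, as TTTGCCG. In the 250 bases upstream of the start, from the RefSeq promoters of GRCh38.p14 and on either strand, the CHR letters were found in 15 of 29 mitosis promoters, 1 of 29 replication promoters and 13.6% of all 27305 promoters. For CCAAT the numbers were 21 of 29, 15 of 29 and 33.0%, and for the E2F letters 2 of 29, 16 of 29 and 6.37%. A match is a description of letters, not a bound site. The upstream regions of the pair of mitosis genes that fell most among those with both elements (ECT2, the exchange factor that starts the cleavage furrow, chr3:172750476-172750725, + strand, and CDK1, the mitotic kinase, chr10:60778081-60778330, + strand) and of the replication gene that fell most among those with an E2F match (CDT1, which loads the MCM helicase, chr16:88803539-88803788, + strand) are shown from 5′ to 3′ up to the start, with those letters in capitals.

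ECT2: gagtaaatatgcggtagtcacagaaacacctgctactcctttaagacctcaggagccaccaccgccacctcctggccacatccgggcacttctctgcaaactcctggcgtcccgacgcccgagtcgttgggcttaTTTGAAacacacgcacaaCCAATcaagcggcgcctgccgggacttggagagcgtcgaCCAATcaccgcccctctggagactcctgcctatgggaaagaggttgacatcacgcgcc

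CDK1: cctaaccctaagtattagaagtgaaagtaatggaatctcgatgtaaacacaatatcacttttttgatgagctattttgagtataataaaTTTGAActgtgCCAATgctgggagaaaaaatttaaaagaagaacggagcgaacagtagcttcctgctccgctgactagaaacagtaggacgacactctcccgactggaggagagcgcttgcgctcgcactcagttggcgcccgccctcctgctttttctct

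CDT1: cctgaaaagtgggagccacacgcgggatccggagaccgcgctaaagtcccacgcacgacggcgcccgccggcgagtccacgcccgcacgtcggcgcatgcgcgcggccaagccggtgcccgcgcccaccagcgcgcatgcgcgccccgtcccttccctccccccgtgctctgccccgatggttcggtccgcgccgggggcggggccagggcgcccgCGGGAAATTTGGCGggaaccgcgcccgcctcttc

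ECT2 had 248, 266 and 254 CPM under DMSO and 63.3, 82.3 and 71.7 CPM in DTPs (log2 fold change of -1.82 ± 0.13 (SE), adjusted p = 5.39e-05). CDK1 had 124, 104 and 118 CPM under DMSO and 31.2, 53.4 and 37.7 CPM in DTPs (log2 fold change of -1.501 ± 0.19 (SE), adjusted p = 6.70e-04). CDT1 fell from 89.2, 63.7 and 74.3 to 18.4, 21.9 and 18.1 CPM (log2 fold change -1.96, adjusted p = 9.10e-05). None of these groups overlapped, and for CDK1 DTP replicate 2 was the highest of its group. GINS2 and MCM10, parts of the replication fork, fell by 1.77 and 1.65, and PTTG1 (securin) and KIF14 (a kinesin of cytokinesis) by 1.65 and 1.60.

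Compared with acute drug, DTPs held more of these mRNAs. Of 35 mitosis genes, 25 were higher and 0 lower than after 24 h of osimertinib, and of 34 replication genes 26 were higher and 1 lower. Per library, the median mitosis gene lay -2.11, -2.50 and -2.05 from its DMSO mean (log2 of CPM + 1) under acute drug and -1.88, -1.03 and -1.31 in DTPs. DTP replicate 1, the lowest of its group, lay closest to the acute libraries. CDK1 was higher in DTPs than under acute drug by 1.16 (adjusted p = 0.0107), whereas ECT2 was not called (log2 fold change 0.11, adjusted p = 0.542). CDT1 was lower still (log2 fold change -0.82, adjusted p = 0.00730).

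The list of 23 cell cycle brakes held CDK inhibitors, RB family proteins, subunits of the DREAM complex and antiproliferative genes. Of these 5 rose and 5 fell, 43.5% against 36.7% of all genes tested (median 0.12). CDKN1C, the CDK inhibitor p57, had 2.39, 1.74 and 2.30 CPM under DMSO and 24.1, 17.5 and 27.4 CPM in DTPs (log2 fold change of 3.42 ± 0.25 (SE), adjusted p = 6.73e-05), and no library of one group reached the other. CDKN2B (p15) and CDKN1A (p21) rose by 0.99 and 0.98, but the CDKN2B call was lost, with adjusted p of 0.0626 to 0.140 without any 1 of DMSO replicate 1, DMSO replicate 2, DMSO replicate 3 and DTP replicate 1, and the CDKN1A call was lost, with adjusted p of 0.0819 to 0.155 without any 1 of DMSO replicate 1, DMSO replicate 3, DTP replicate 1 and DTP replicate 3. Without DTP replicate 1 the value of CDKN2B was 0.45. E2F4 and LIN54, subunits of the DREAM complex that represses cell cycle genes, fell by 0.92 and 0.67. The number of brakes called was 5 without DMSO replicate 1, 5 without DMSO replicate 2 and 6 without DMSO replicate 3, and 6 without DTP replicate 1 and 6 without DTP replicate 3. Of 25 Fanconi and homologous recombination genes, 17 fell and 0 rose (median -0.90), among them XRCC2, a homologous recombination factor, by 1.41 and the exonuclease EXO1 by 1.46.

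Epithelial and mesenchymal genes moved in opposite directions. Of 22 epithelial junction genes 12 fell and 1 rose (median -0.83), and of 17 mesenchymal genes 11 rose and 2 fell (median 2.63). CDH1, E-cadherin, had 964, 1084 and 1052 CPM under DMSO and 495, 213 and 176 CPM in DTPs (log2 fold change of -1.81 ± 0.34 (SE), adjusted p = 0.00387). EPCAM, the epithelial adhesion molecule, had 402, 439 and 487 CPM under DMSO and 181, 100.4 and 88.3 CPM in DTPs (log2 fold change of -1.84 ± 0.25 (SE), adjusted p = 8.89e-04). ESRP1, the epithelial splicing regulator, had 317, 237 and 341 CPM under DMSO and 99.5, 42.0 and 31.7 CPM in DTPs (log2 fold change of -2.37 ± 0.39 (SE), adjusted p = 0.00192). Replicate 1 kept the most of all these mRNAs among the DTPs, and without it CDH1 was at -2.41 (adjusted p = 2.81e-05), EPCAM at -2.23 and ESRP1 at -3.02. The claudin CLDN1, a tight junction protein, was the list's exception, with 31.5, 38.0 and 24.9 CPM under DMSO and 246, 142 and 86.1 CPM in DTPs (log2 fold change of 2.33 ± 0.35 (SE), adjusted p = 0.00127).

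On the mesenchymal side, VIM, vimentin, had 129, 147 and 104 CPM under DMSO and 807, 789 and 1037 CPM in DTPs (log2 fold change of 2.80 ± 0.18 (SE), adjusted p = 3.82e-05). ZEB1, a repressor of E-cadherin, had 3.35, 6.90 and 3.44 CPM under DMSO and 17.4, 33.1 and 34.6 CPM in DTPs (log2 fold change of 2.63 ± 0.36 (SE), adjusted p = 8.95e-04), and its paralog ZEB2 had 1.12, 2.63 and 0.132 CPM under DMSO and 20.5, 31.4 and 39.6 CPM in DTPs (log2 fold change of 4.56 ± 0.67 (SE), adjusted p = 0.00116). DTP replicate 1 was the lowest DTP library for ZEB1 and ZEB2. SPARC, a matrix glycoprotein, rose from 0.762, 0.516 and 0.618 to 68.0, 25.9 and 38.1 CPM (log2 fold change 6.11, adjusted p = 5.16e-05). For SPARC replicate 1 was the highest. SNAI1, another repressor of E-cadherin, fell from 8.43, 10.4 and 8.92 to 0.863, 1.74 and 1.51 CPM (log2 fold change -2.75, adjusted p = 4.79e-04), and the matrix protein TNC, tenascin C, fell by 1.06.

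**Figure D3:**
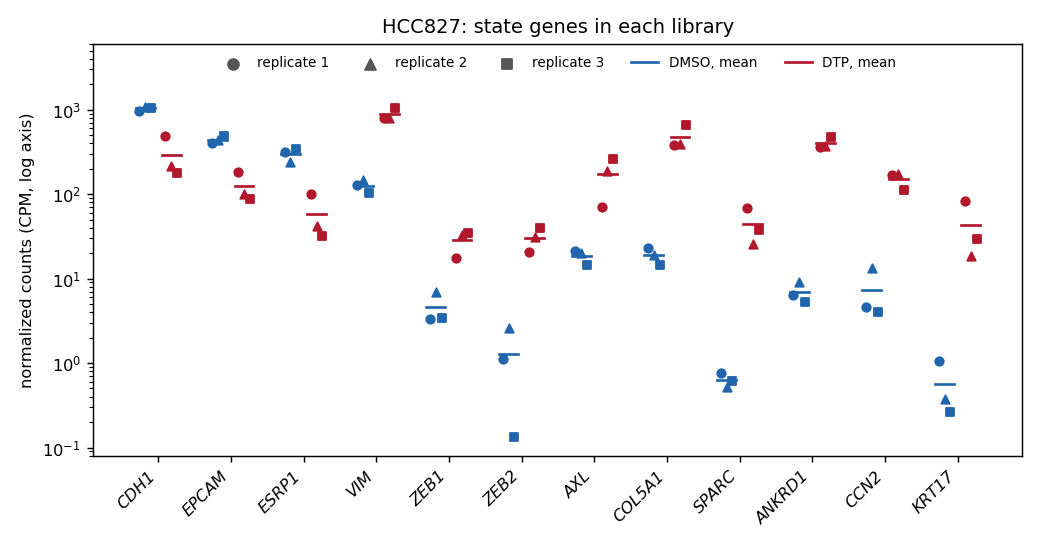
Normalized counts (CPM, log axis) of 12 epithelial, mesenchymal and YAP-related genes in the 3 DMSO (blue) and 3 DTP (red) libraries, with symbols for the replicates and lines for the means. The groups do not overlap for any of these genes, and DTP replicate 1 lies highest for CDH1, EPCAM and ESRP1 and lowest for ZEB1, ZEB2 and AXL.

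Markers of fibroblasts were checked for RNA of other cells. The summed level of 8 markers was 6.47 to 9.49 TPM under DMSO and 26.2 to 63.4 TPM in DTPs, highest in replicate 1. COL1A1 gave 40.8, 21.2 and 32.3 TPM of it in DTPs, LUM (lumican) 11.7, 2.18 and 3.21 TPM and COL3A1 6.79, 2.08 and 1.72 TPM, whereas COL1A2, the partner chain of type I collagen, and THY1 stayed at or below 0.0997 and 0.152 TPM in all 6 libraries. These COL1A1 levels compare with 7.06, 4.73 and 9.16 TPM under DMSO, and the part of other cells in the rises was not tested. The 8 leukocyte markers summed to 82.2 to 118 TPM under DMSO and 91.2 to 172 TPM in DTPs, nearly all of it CD68, a lysosomal protein, at 116, 80.7 and 108 TPM under DMSO and 89.2, 167 and 130.3 TPM in DTPs. CD3E and TYROBP were at 0, PTPRC and LYZ reached at most 0.307 and 0.0659 TPM and CD79A 1.43 TPM, under DMSO. CD14 was higher in all DTP libraries, at 0.545, 0.926 and 0.397 TPM against at most 0.181 TPM under DMSO, and FCER1G was at 0.201, 2.86 and 0.592 TPM in DTPs against at most 0.478 TPM. The 5 endothelial markers summed to at most 2.37 TPM.

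Of 26 YAP and TAZ co-activators, TEAD partners and targets, 13 rose and 2 fell (median 0.63). ANKRD1, an ankyrin repeat protein known as a YAP target, had 6.45, 9.15 and 5.34 CPM under DMSO and 357, 374 and 481 CPM in DTPs (log2 fold change of 5.85 ± 0.24 (SE), adjusted p = 1.42e-05). CCN2, connective tissue growth factor, had 4.57, 13.3 and 4.06 CPM under DMSO and 168, 172 and 113 CPM in DTPs (log2 fold change of 4.37 ± 0.44 (SE), adjusted p = 2.03e-04). The mRNAs of the co-activators were not called, YAP1 at -0.25 (adjusted p = 0.100) and WWTR1 (TAZ) at -0.61 (adjusted p = 0.0530). WWTR1 was called without DMSO replicate 3 (-0.72) or DTP replicate 3 (-0.78, adjusted p = 0.0309), and was -0.37 (adjusted p = 0.170) without DMSO replicate 2. F3, tissue factor, fell by 2.12 and NT5E, the ecto-enzyme CD73, by 1.87. The letters GGAATG, which TEAD factors bind, lay in 6 of 20 promoters of the list and in 11.9% of all promoters, on either strand. The region upstream of ANKRD1 (chr10:90921088-90921337, - strand) is shown because it is the member with the letters that rose most.

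ANKRD1: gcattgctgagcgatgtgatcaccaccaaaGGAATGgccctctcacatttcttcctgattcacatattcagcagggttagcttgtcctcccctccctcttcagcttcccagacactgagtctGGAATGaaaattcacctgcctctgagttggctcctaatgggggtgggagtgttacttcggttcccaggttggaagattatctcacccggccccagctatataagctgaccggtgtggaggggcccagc

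Adhesion and matrix genes went both ways. Of 28 tested, 11 rose and 6 fell (median 0.29). COL5A1, a collagen that nucleates fibrils, had 23.3, 19.2 and 14.6 CPM under DMSO and 384, 391 and 652 CPM in DTPs (log2 fold change of 4.64 ± 0.27 (SE), adjusted p = 2.95e-05), and COL6A2 and the integrin ITGB8 rose by 3.18 and 3.20. LAMB3, a chain of the basement membrane laminin of epithelia, fell by 1.66, and ITGA6, an integrin chain that binds that laminin, by 1.07. Of 11 keratins 3 rose and 4 fell (median -0.69). KRT17, a keratin of basal and injured epithelium, had 1.07, 0.376 and 0.265 CPM under DMSO and 82.3, 18.6 and 29.3 CPM in DTPs (log2 fold change of 6.27 ± 0.71 (SE), adjusted p = 3.59e-04). The keratins of simple epithelium KRT8 and KRT18 fell by 1.08 and 1.57. KRT8, KRT17 and KRT18 have named pseudogenes, so the split of their reads is uncertain.

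Against acute osimertinib the difference in epithelial genes was wider. 21 of 22 epithelial junction genes were lower in DTPs and 0 higher (median -1.26), and 10 of 17 mesenchymal genes were higher and 0 lower. CDH1 stood at 1223, 1356 and 1381 CPM under acute drug, above its DMSO libraries, and differed from DTPs by -2.15 (adjusted p = 0.00431). AXL stood at 8.84, 9.75 and 11.02 CPM under acute drug, below its DMSO libraries, and differed from DTPs by 4.15 (adjusted p = 9.65e-04). VIM and ZEB1 differed by 2.31 (adjusted p = 2.80e-04) and 3.12 (adjusted p = 8.34e-04).

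Survival genes of the BCL2 family came next. Of 15 tested, 3 rose and 1 fell, 26.7% against 36.7% of all genes tested (median 0.27), and the number called was 2 without DMSO replicate 1. HRK, a BH3-only inducer of apoptosis, rose from 0.610, 0.141 and 0.574 to 11.3, 5.65 and 6.37 CPM (log2 fold change 4.12, adjusted p = 7.24e-04). BOK, an effector related to BAX and BAK1, had 28.5, 24.3 and 22.1 CPM under DMSO and 125, 105 and 146 CPM in DTPs (log2 fold change of 2.33 ± 0.16 (SE), adjusted p = 5.16e-05), with all DTP libraries above all DMSO libraries. BMF, another BH3-only gene, had 55.6, 16.9 and 76.2 CPM under DMSO and 218, 135 and 116 CPM in DTPs (log2 fold change 1.66, adjusted p = 0.0221), and lost its call, with adjusted p of 0.0575 to 0.0606 without either of DMSO replicate 1 and DTP replicate 1. BIK, also BH3-only, fell by 0.77, and lost its call, with adjusted p of 0.0668 to 0.115 without any 1 of DMSO replicate 1, DMSO replicate 2, DTP replicate 1 and DTP replicate 3. BCL2L11, which encodes BIM, the BH3-only protein through which EGFR inhibitors are known to kill, had 51.6, 46.0 and 58.7 CPM under DMSO and 53.1, 52.1 and 49.6 CPM in DTPs and was not called (log2 fold change -0.01, adjusted p = 0.946). The guardians MCL1 (-0.28), BCL2L1 (-0.34) and BCL2L2 (0.27) and the effectors BAX (-0.25) and BAK1 (0.34) were not called either, nor were BBC3 (0.78), PMAIP1 (-0.13), BAD (0.42), BID (0.41) and BCL2A1 (-1.51). BCL2A1 was called without DTP replicate 2 (-2.39, adjusted p = 0.00699) and BCL2L1 without DTP replicate 1 (-0.52, adjusted p = 0.0430). Relative to acute drug, BCL2L11 was lower in DTPs (log2 fold change -0.48, adjusted p = 0.00788), and BOK and HRK were higher by 1.41 (adjusted p = 7.17e-04) and 2.71 (adjusted p = 0.00168).

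FOXO factors, which AKT keeps out of the nucleus, and their targets had 6 rises and 0 falls among 17 tested (median 0.73). The share called was 35.3%, against 36.7% of all genes tested called in either direction and 19.4% called higher. CITED2, a co-activator regulator, had 37.9, 35.1 and 26.8 CPM under DMSO and 154, 153 and 149 CPM in DTPs (log2 fold change of 2.19 ± 0.15 (SE), adjusted p = 4.80e-05). PIK3IP1, an inhibitor of PI3K, and SESN3, a sestrin that restrains mTORC1, rose by 2.74 and 2.64. Against acute drug the list was mixed, with 4 higher and 4 lower.

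Immune genes rose in part. Of 30 interferon-stimulated genes 16 rose and 0 fell (median 0.93). IFI27 had 14.2, 9.34 and 16.2 CPM under DMSO and 96.5, 176 and 169.6 CPM in DTPs (log2 fold change of 3.47 ± 0.28 (SE), adjusted p = 8.65e-05) and BST2, tetherin, which holds budding virus at the membrane, had 6.604, 4.46 and 12.01 CPM under DMSO and 32.6, 82.5 and 63.5 CPM in DTPs (log2 fold change of 2.95 ± 0.42 (SE), adjusted p = 0.00102). RSAD2, viperin, reached 1.12, 2.37 and 3.12 CPM from 4 DMSO reads in all. For each of these the DTP libraries lay above DMSO, with replicate 1 the lowest. The core of the interferon response element (TTTCNNTTT, either strand) was found in 15 of 24 promoters of the list and 9.28% of all promoters. The region upstream of IFI27 (chr14:94110486-94110735, + strand) is shown as that of the member with the letters that rose most among those with a mean of at least 5 CPM.

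IFI27: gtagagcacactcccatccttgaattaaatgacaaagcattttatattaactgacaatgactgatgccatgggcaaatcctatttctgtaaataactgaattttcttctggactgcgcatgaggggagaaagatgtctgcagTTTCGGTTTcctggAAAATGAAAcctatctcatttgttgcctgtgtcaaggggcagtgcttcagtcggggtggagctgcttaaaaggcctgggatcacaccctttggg

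Of 18 complement and acute phase genes, 9 rose and 1 fell (median 1.11). CLU, clusterin, a secreted chaperone, had 7.37, 7.79 and 6.49 CPM under DMSO and 142, 80.7 and 142 CPM in DTPs (log2 fold change of 4.07 ± 0.24 (SE), adjusted p = 2.98e-05), and SERPING1, the inhibitor of C1, rose from 0.610, 0.141 and 0.530 to 7.05, 6.04 and 4.08 CPM (log2 fold change 3.73, adjusted p = 0.00101). SERPINA1, antitrypsin, fell by 1.37 (adjusted p = 0.00266). CP, ceruloplasmin, stood apart in DTP replicate 2, with 1.88, 62.2 and 10.8 CPM in DTPs against 2.49, 2.35 and 4.94 under DMSO, and lost its call, with adjusted p of 0.0742 to 0.332 without any 1 of DMSO replicate 1, DMSO replicate 2, DMSO replicate 3 and DTP replicate 2. Without DMSO replicate 1 the list had 6 calls. Of 23 chemokines and interleukins, 8 rose and 1 fell, 39.1% against 36.7% of all genes tested (median 1.496), with 5 calls without DMSO replicate 1. CCL2, the monocyte attractant, reached 9.69, 7.34 and 3.99 CPM from 6 DMSO reads, and IL32 rose by 2.75 (adjusted p = 6.97e-04). CXCL8, interleukin 8, stood at 7.61, 116 and 11.9 CPM in DTPs, against 5.64, 3.66 and 5.08 under DMSO, highest by far in replicate 2, and its call was lost, with adjusted p of 0.0559 to 0.0937 without any 1 of DMSO replicate 1, DMSO replicate 2, DMSO replicate 3 and DTP replicate 2. Without DTP replicate 2 the log2 fold change of CP was 0.94 and that of CXCL8 1.000.

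FOSB, an immediate early AP-1 subunit, was also highest in replicate 2, at 1.37, 46.2 and 2.47 CPM in DTPs and 1.57, 1.83 and 1.41 under DMSO, with a value of 0.24 (adjusted p = 0.761) without that library. Its call was lost, with adjusted p of 0.121 to 0.761 without any 1 of DMSO replicate 1, DMSO replicate 2, DMSO replicate 3 and DTP replicate 2. Among 18 AP-1 and KLF factors 8 rose and 2 fell (median 0.85). The stress-induced factor ATF3 and the zinc finger factor KLF13 rose by 2.00 and 2.07, and KLF4, a factor of epithelial differentiation, fell by 1.46. Of 19 genes of the STAT3 and gp130 axis 7 rose and 1 fell, 42.1% against 36.7% of all genes tested (median 0.19). LIFR, the receptor of leukemia inhibitory factor, rose by 0.97 and IL11RA, that of interleukin 11, by 1.44. The axis had 4 calls without DMSO replicate 1, 5 without DMSO replicate 3 and 5 without DTP replicate 3. MHC class I presentation had 2 rises and 2 falls among 10 tested genes, 40% against 36.7% of all genes tested (median 0.15). It had 2 calls in all without DMSO replicate 3 or without DTP replicate 2. The peptide transporter subunits went apart, TAP1 rising by 0.63 and TAP2 falling by 0.60. No HLA chain of either class was tested, since HLA genes are not analysed here. The 4 tested genes of the class II list are a chaperone, an activator and enzymes of antigen processing, of which 0 were called by edgeR or DESeq2 and 0 had an unadjusted p under 0.05. Of 5 tested APOBEC3 cytidine deaminases 0 rose, and APOBEC3B fell by 1.44 (adjusted p = 0.00229).

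Most genes of lipid synthesis and glycolysis fell. Of 28 genes of cholesterol and fatty acid synthesis, 24 fell and 0 rose (median -1.14). SCD, the desaturase that makes oleate, had 2125, 1414 and 1608 CPM under DMSO and 188, 295 and 294 CPM in DTPs (log2 fold change of -2.73 ± 0.22 (SE), adjusted p = 8.48e-05). INSIG1, the sterol sensor that retains SREBP, fell from 316, 202 and 197 to 33.1, 41.6 and 73.6 CPM (log2 fold change -2.27, adjusted p = 8.42e-04). For both genes every DTP library lay below every DMSO library. Relative to acute drug, 14 of the list were lower in DTPs and 0 higher, SCD among the former (log2 fold change -1.30, adjusted p = 0.0101).

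Of 26 glycolysis and hypoxia genes, 18 fell and 1 rose (median -1.23). HK2, the inducible hexokinase, had 141, 181 and 116 CPM under DMSO and 35.7, 34.0 and 32.6 CPM in DTPs (log2 fold change of -2.10 ± 0.17 (SE), adjusted p = 8.17e-05), and PGK1, phosphoglycerate kinase, had 3162, 3242 and 2835 CPM under DMSO and 786, 951 and 769.6 CPM in DTPs (log2 fold change of -1.88 ± 0.13 (SE), adjusted p = 5.16e-05). NDRG1, a hypoxia-induced gene, fell by 2.01 (adjusted p = 7.24e-05). ADM, adrenomedullin, also a target of hypoxia, went up, with 24.3, 28.9 and 18.1 CPM under DMSO and 30.7, 85.1 and 54.9 CPM in DTPs (log2 fold change 1.26, adjusted p = 0.0173), a call that was lost, with adjusted p of 0.0569 to 0.0599 without any 1 of DMSO replicate 1, DMSO replicate 3 and DTP replicate 2 (value 0.83 without the last). The respiratory chain had 14 falls and 0 rises among 26 genes (median -0.40), COX5A of cytochrome oxidase falling by 0.73. Ribosome biogenesis had 12 falls and 0 rises among 30 (median -0.51), with DKC1, the pseudouridine synthase dyskerin, down by 1.19.

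Lysosomal genes rose as a group. Of 32 tested, 26 rose and 2 fell (median 0.85). CTSA, the protective protein cathepsin A, had 202, 208 and 219.6 CPM under DMSO and 545, 699 and 778 CPM in DTPs (log2 fold change of 1.68 ± 0.15 (SE), adjusted p = 1.16e-04), WIPI1, an autophagy protein that binds phosphoinositides, had 4.01, 2.82 and 3.05 CPM under DMSO and 16.6, 15.4 and 12.05 CPM in DTPs (log2 fold change of 2.16 ± 0.25 (SE), adjusted p = 3.71e-04), and the protease CTSO rose by 1.67. The exceptions were GLA, the galactosidase lacking in Fabry disease, which fell by 0.68, and MITF, a factor of the MiT family, by 0.62. Lysosomal promoters often carry the CLEAR element, whose core is CACGTG. These letters were in 8 of 24 promoters of the list and 6.49% of all promoters, and they are palindromic, so that both strands count once. The region upstream of CTSA (chr20:45891085-45891334, + strand), the member with the letters that rose most, holds them more than once.

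CTSA: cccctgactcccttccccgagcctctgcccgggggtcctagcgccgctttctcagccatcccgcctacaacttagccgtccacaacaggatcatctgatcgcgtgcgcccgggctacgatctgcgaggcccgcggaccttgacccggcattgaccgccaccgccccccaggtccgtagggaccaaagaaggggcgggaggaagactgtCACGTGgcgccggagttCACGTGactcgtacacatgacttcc

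Against acute drug 11 lysosomal genes were higher and 2 lower in DTPs. NRF2 targets were mixed, with 3 rises and 6 falls among 21 (median 0.01, and 5 calls without DMSO replicate 1). That was 42.9% against 36.7% of all genes tested. HMOX1, heme oxygenase, had 17.3, 15.1 and 16.4 CPM under DMSO and 25.1, 40.6 and 78.9 CPM in DTPs (log2 fold change 1.57, adjusted p = 0.00873), highest in replicate 3 and 1.02 without it, while NQO1, a quinone reductase, fell by 0.86. Of 16 aldehyde dehydrogenases 3 rose and 1 fell, 25% against 36.7% of all genes tested (median 0.03). ALDH1A1, a retinal dehydrogenase used as a stem cell marker, reached 1.83, 3.48 and 3.94 CPM from 4 DMSO reads, and ALDH5A1 and ALDH3B1 rose by 1.36 and 0.82.

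The lung lineage genes gave no single direction. Of 16 alveolar genes 5 rose and 5 fell (median 0.48). CTSH, a protease that processes surfactant proteins, had 35.7, 26.7 and 47.5 CPM under DMSO and 184, 219.7 and 175 CPM in DTPs (log2 fold change of 2.40 ± 0.21 (SE), adjusted p = 1.11e-04), while NAPSA, another such protease, had 49.2, 28.8 and 80.4 CPM under DMSO and 23.1, 14.9 and 15.7 CPM in DTPs (log2 fold change -1.56, adjusted p = 0.00778) and CAV1, caveolin, a marker of flat alveolar cells, fell by 1.51. HOPX, also a marker of flat alveolar cells, rose but stayed low, at 3.86, 1.40 and 0.733 CPM in DTPs. Of 14 airway secretory and mucin genes, 1 was called, the secretoglobin SCGB3A2, with 133, 195 and 148 CPM under DMSO and 75.3, 46.9 and 51.8 CPM in DTPs (log2 fold change -1.45, adjusted p = 0.00111). The number called was 3 without DMSO replicate 2, and 2 without any 1 of DMSO replicate 3, DTP replicate 1 and DTP replicate 3.

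Genes that the study took to experiments or discusses as candidates for resistance were looked up as well. Fold changes after acute osimertinib in PC9 and HCC827 were among the features behind the study's choice of some of them, so the list is not independent evidence of direction. Of 13, 1 rose and 7 fell in DTPs (median -0.45, 5 calls without DMSO replicate 1). BCL6, a transcriptional repressor, had 10.8, 8.03 and 12.5 CPM under DMSO and 45.8, 38.8 and 28.4 CPM in DTPs (log2 fold change of 1.85 ± 0.23 (SE), adjusted p = 5.85e-04), with no overlap. EZH2, the methyltransferase of Polycomb repression, had 60.8, 63.1 and 65.4 CPM under DMSO and 25.98, 36.5 and 31.9 CPM in DTPs (log2 fold change of -1.004 ± 0.15 (SE), adjusted p = 0.00116). Every DTP library of EZH2 lay below every DMSO library. CAND1, an exchange factor of cullin ligases, fell by 0.40 and SRC, a tyrosine kinase, by 0.38, but the CAND1 call was lost, with adjusted p of 0.0506 to 0.0650 without either of DMSO replicate 1 and DTP replicate 3, and the SRC call was lost, with adjusted p of 0.0559 to 0.107 without any 1 of DMSO replicate 1, DMSO replicate 3, DTP replicate 2 and DTP replicate 3. The RAS inhibitor NF1 (0.06), the NRF2 inhibitor KEAP1 (0.40) and the ubiquitin ligase adaptor KCTD5 (-0.45) were not called. KEAP1 was called without DMSO replicate 2 (0.51, adjusted p = 0.0400) and KCTD5 without DMSO replicate 3 (-0.62, adjusted p = 0.0344), and KCTD5 was -0.26 without DMSO replicate 2.

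Levels after removal of the drug were set beside those of DTPs. Over the mitosis list the median gene lay -1.79, -0.75 and -1.01 from its DMSO mean after the short washout and -1.62, -1.33 and -1.39 after the long one, and over the mesenchymal list 1.69, 1.61 and 1.55 and 1.55, 1.79 and 2.05, beside 1.70, 1.79 and 1.70 in DTPs. VIM stood at 881 ± 141 CPM (SD, n = 3) in DTPs, 933 ± 78.7 after the short and 838 ± 105 after the long washout, against 131 ± 23.3 under DMSO. CDH1 stood at 295 ± 173, 291 ± 182, 284 ± 62.6 and 1066 ± 68.3 CPM in that order, and AXL at 175 ± 96.9, 208 ± 106, 184 ± 44.9 and 19.3 ± 3.91 CPM. For these genes the washout means lay nearer to DTPs than to DMSO. DUSP6 stood at 15.5 ± 9.13 CPM in DTPs, where replicate 2 was well above the others, and 29.7 ± 5.71 CPM after the long washout. Its levels under DMSO and after the short washout are not set beside these. A return to the DMSO level can therefore not be read from them.

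**Figure D4:**
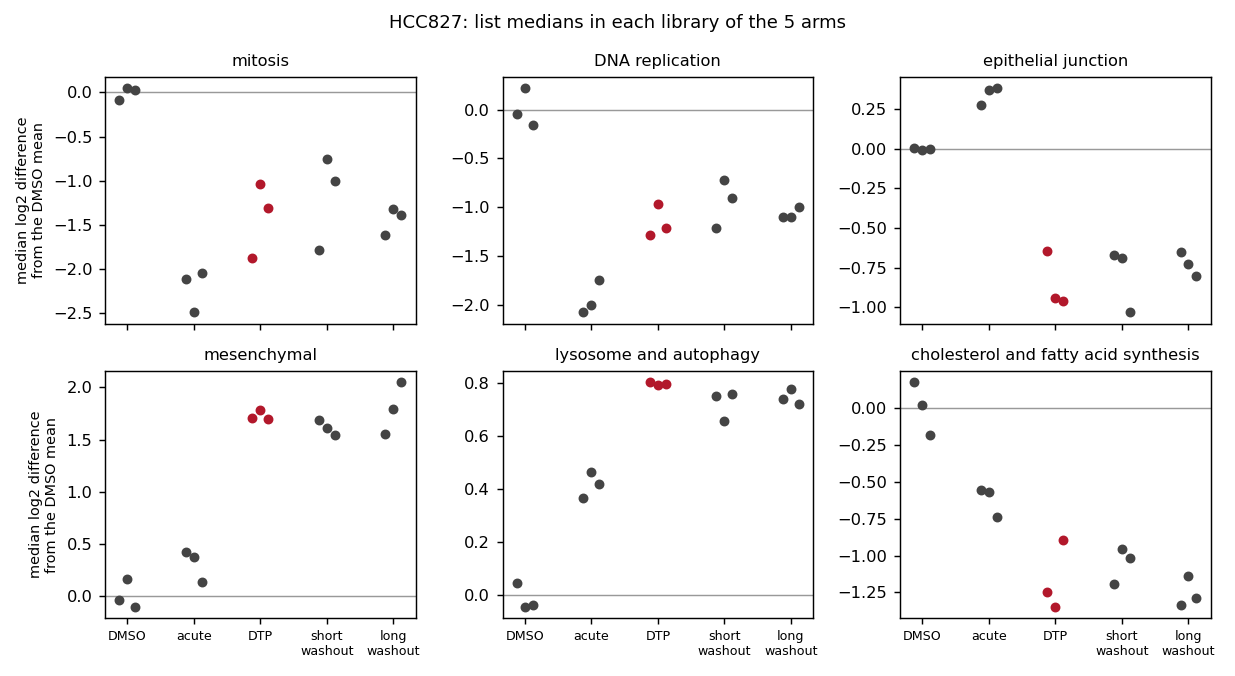
Points give, for each HCC827 library of the 5 arms (n = 3 each), the median over the tested members of a list of the difference from the member's DMSO mean (log2 of CPM + 1), with DTPs in red. Mitosis and replication genes are lowest under acute drug, and epithelial genes are above DMSO under acute drug and below it in DTPs and both washouts.

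The other lines were used to ask which changes were larger or smaller in HCC827. The difference between the DTP effect in HCC827 and the mean effect of the other lines was called for 4234 of 16001 genes (26.5%), 2328 with the HCC827 effect higher (14.5%) and 1906 with it lower (11.9%). Each line's effect was taken against its own DMSO libraries. ERK-dependent genes had 12 calls with HCC827 higher and 0 with HCC827 lower. The DTP effect on DUSP6 was -0.34 in HCC827, -4.82 in PC9, -2.90 in H1975 and -3.73 in HCC2935 (difference 3.44, adjusted p = 1.03e-06). For DUSP4 it was 1.38 in HCC827 and -2.38 in PC9, -1.74 in H1975 and -1.56 in HCC2935 (difference 3.25, adjusted p = 1.19e-08). For both phosphatases the value was below 0 in each of the other lines.

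Of 18 mesenchymal genes tested, 9 were called with HCC827 higher and 1 with it lower, and of 22 epithelial junction genes 1 and 10. The other lines differed among themselves. Median effects over the epithelial list were -0.83 in HCC827, 0.53 in PC9, -0.99 in H1975 and -0.28 in HCC2935. Over the mesenchymal list they were 2.63, 0.15, 0.54 and 1.13 in that order. AXL had values of 3.22 in HCC827, -1.18 in PC9, -0.64 in H1975 and 0.59 in HCC2935 (difference 3.61, adjusted p = 1.50e-06), and ZEB1 of 2.63 in HCC827, -1.45 in PC9, 0.74 in H1975 and -0.51 in HCC2935 (difference 3.01, adjusted p = 1.61e-04). CDH1 gave no called difference from the mean of the other lines (-0.45, adjusted p = 0.376), and its effects there ran from -5.14 in H1975 to 1.08 in PC9. Among genes averaging 5 CPM or more, IGFN1 had the widest difference with HCC827 higher (7.98, adjusted p = 3.32e-08), followed by VGF, a neuropeptide precursor (6.38, adjusted p = 1.16e-08). PDZK1IP1, a small membrane protein of epithelia, had the widest with HCC827 lower (-5.79, adjusted p = 7.42e-07). It had log2 fold changes of 8.50 in PC9, 5.12 in H1975 and 2.06 in HCC2935, and was not called in HCC827 (log2 fold change -0.57, adjusted p = 0.337).

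NDRG1, of the glycolysis and hypoxia list, had values of -2.01 in HCC827, 1.70 in PC9, 1.31 in H1975 and 0.87 in HCC2935 (difference -3.33, adjusted p = 9.02e-09), and DDIT4, a stress-induced gene of no list, of -3.07 in HCC827, -0.16 in PC9, 0.59 in H1975 and 0.96 in HCC2935 (difference -3.56, adjusted p = 1.80e-07). Of 27 glycolysis and hypoxia genes tested for a line difference, 14 had a lower effect in HCC827 and 1 a higher one. The median of that list was negative in every line, at -1.23 in HCC827, -0.89 in PC9, -0.48 in H1975 and -0.38 in HCC2935. The mitosis list gave no called difference between the lines by edgeR, with 2 of 35 at an unadjusted p under 0.05 and 1 called by DESeq2, and medians of -1.37 in HCC827, -1.51 in PC9, -1.58 in H1975 and -1.56 in HCC2935. Interferon-stimulated genes had medians of 0.93 in HCC827 and 2.57, -0.86 and -0.07 in PC9, H1975 and HCC2935, and cholesterol genes -1.14 in HCC827 and -0.93, -0.61 and -0.97 in the others. Genes with 0 counts in all libraries of a group, 1070 of those tested, allow no valid test of this difference, and KIT, GLI3, KIF26A and SFMBT2 are among them. 100 of them are counted among the calls, and the list counts for line differences were not cleared of such genes.

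**Figure D5:**
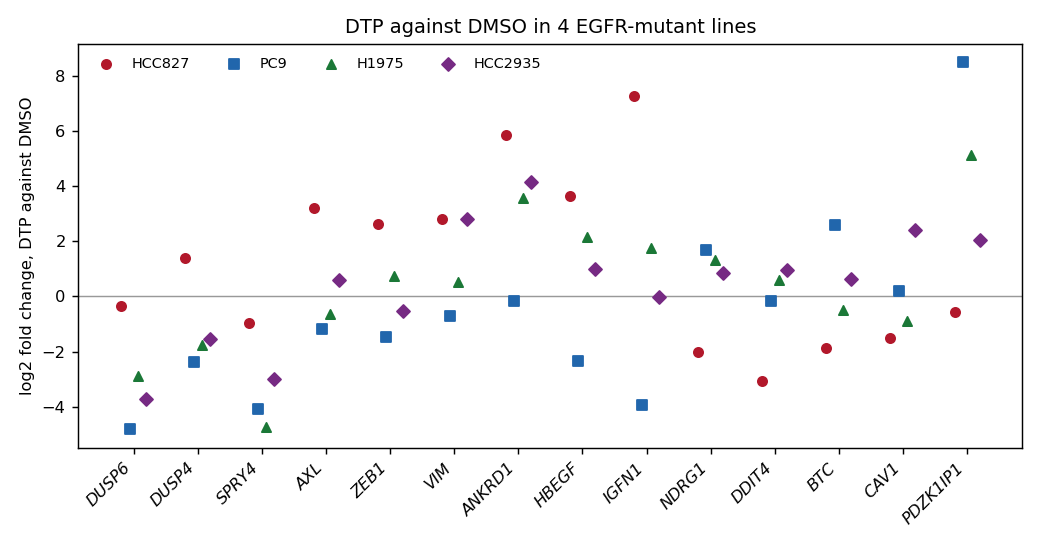
Log2 fold change between DTPs and DMSO (3 libraries each) of 14 genes in HCC827 (red circles), PC9 (blue squares), H1975 (green triangles) and HCC2935 (purple diamonds). AXL, ZEB1 and IGFN1 are highest in HCC827, and DDIT4, NDRG1 and PDZK1IP1 are lowest in HCC827.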

How the data were processed

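RNA was sequenced from triplicate cultures. The authors deposited estimated counts per gene, not normalized, from Salmon 0.8.2 (per the submitters' processing notes, which also name HISAT2 2.1.0 and hg38), and log2 values of TPM (levels scaled by the authors for transcript length and depth, with 0.01 added). The strand setting of the counting is not given in the sources used here. Counts were rounded, filtered with filterByExpr, scaled by TMM and tested with edgeR 4.0.16 (quasi-likelihood, Benjamini-Hochberg over all genes tested, two-sided) in R 4.3.3, on the libraries of each comparison. The line difference came from 1 model of 24 libraries. DESeq2 1.42.0 and limma 3.58.1 on log2(TPM + 0.01), other scalings, filters and thresholds, a replicate block and leaving out each library were the alternatives. Scripts were tested on simulated data. There, changes of 2-fold or 4-fold were planted in genes with ample counts, so large rises from a few DMSO reads were not covered.

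The comparison and the gene lists were chosen with earlier results of these data known. Named genes were the largest called changes over all genes (mean of at least 5 CPM, no overlap of groups) and within each list (mean of at least 1 CPM), and all tested BCL2 family, ERBB and study genes could be named. DUSP6, SPRY4, ETV1, CDK1, VIM, ZEB1 and the motifs for interferon, TEAD and lysosomal genes were chosen after their values were seen. Of the 156 genes named, 50 overlap a gene on the opposite strand, 15 one on the same strand, and 17 have a named pseudogene, so their reads may be shared. Intervals cover counting error only. A growth protocol in the labels names another line than HCC827. Promoters are 250 bases upstream of the RefSeq start. HLA genes are not analysed here. Results for some genes are not reported here.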

Additional observations from a re-analysis of the deposited data

Results flagged for a closer look

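The DTP effect of HCC827 was set against the mean effect of PC9, H1975 and HCC2935 in one edgeR model, and differed from it for 4234 genes at an adjusted p under 0.05. Of the 156 genes named here, 69 had such a difference, 38 with the HCC827 effect above the others and 31 with it below. For 14 more, a group of libraries had no counts and the test is not valid. Values are log2 differences, HCC827 minus the mean of the other lines.

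Above the other lines, the differences were as follows. Among ERBB genes they were 3.34 for HBEGF, 1.22 for LRIG1 and 0.95 for LRIG3. Among ERK-dependent genes they were 3.44 for DUSP6, 3.25 for DUSP4, 2.94 for SPRY4, 2.18 for ETV4, 2.07 for EPHA4, 1.74 for ETV1 and 1.28 for FOSL1. Among genes of cell division, survival and other receptor kinases they were 3.61 for AXL, 2.74 for CDKN1C and 1.90 for BOK. Among epithelial, mesenchymal, keratin and matrix genes they were 3.01 for ZEB1, 2.72 for ZEB2, 2.65 for KRT17, 2.25 for COL6A2, 2.12 for ITGB8, 2.03 for COL5A1, 1.89 for VIM and 0.59 for ITGA6. Among YAP-related genes it was 3.32 for ANKRD1. Among immune, AP-1 and KLF genes they were 4.23 for CXCL8, 3.85 for RSAD2, 3.49 for CP, 2.71 for IFI27 and 1.85 for CLU. Among metabolic and lysosomal genes they were 1.90 for HMOX1, 1.11 for ALDH5A1 and 0.45 for CTSA. Among lung lineage genes and genes discussed in the study it was 2.12 for HOPX. Among genes of no list they were 7.98 for IGFN1, 6.38 for VGF, 5.21 for GUCY1A2, 4.74 for ALPK2, 4.07 for ACKR3, 3.48 for IGFBP5 and 3.12 for RNF150.

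Below the other lines, the differences were as follows. Among ERBB genes they were -2.79 for BTC, -1.29 for NRG1, -0.89 for ERRFI1 and -0.53 for EGFR. Among genes of cell division, survival and other receptor kinases they were -0.73 for MST1R, -0.67 for BCL2L11 and -0.52 for MCL1. Among epithelial, mesenchymal, keratin and matrix genes they were -2.66 for SNAI1, -1.38 for LAMB3, -1.15 for KRT18 and -0.88 for KRT8. Among YAP-related genes they were -2.29 for F3 and -0.32 for YAP1. Among immune, AP-1 and KLF genes they were -1.09 for KLF4 and -0.72 for APOBEC3B. Among metabolic and lysosomal genes they were -3.33 for NDRG1, -1.53 for CTSO, -1.23 for PGK1, -0.93 for MITF and -0.56 for HK2. Among lung lineage genes and genes discussed in the study they were -2.54 for SCGB3A2, -2.11 for CAV1, -1.52 for NAPSA and -0.75 for SRC. Among genes of no list they were -5.79 for PDZK1IP1, -3.56 for DDIT4, -2.96 for MYH15, -2.81 for BCL2L15, -2.47 for PDLIM2, -2.24 for FGFBP1 and -1.81 for GALNT3.

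Leaving out 1 of the 24 libraries in turn ended some of these calls. Without DTP replicate 2 of HCC827, the difference of CP was 1.54 and no longer called (adjusted p = 0.234), and that of CXCL8 was 2.04 and still called (adjusted p = 0.0323). HOPX was at 1.23 (adjusted p = 0.158) without DTP replicate 1 of HCC827, APOBEC3B at -0.45 (adjusted p = 0.222) without its DMSO replicate 1 and HK2 at -0.37 (adjusted p = 0.112) without its DMSO replicate 2. The call was lost without any 1 of 20 libraries for CTSA, 13 for APOBEC3B and 12 for KRT17. RSAD2 lost it without any HCC827 library other than DTP replicate 1 and without DMSO replicate 2 of PC9, and IGFBP5 without any DMSO library or DTP replicate 3 of HCC827. Of the HCC827 libraries, DMSO replicate 1 or 3 or DTP replicate 2 decided FOSL1, DMSO replicate 2 or 3 HOPX as well, DTP replicate 3 HK2 as well, and DMSO replicate 2 or DTP replicate 1 NRG1. A single library decided ITGA6 (DMSO replicate 1), LRIG1 (DMSO replicate 3) and YAP1 (DTP replicate 2), and, outside HCC827, IFI27 (PC9 DMSO replicate 3) and ZEB2 (HCC2935 DMSO replicate 2). The other differences given here stayed called without any 1 library.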

How the results depend on the processing

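Against DMSO 5104 genes were called, 2828 at an adjusted p under 0.01 and 2291 with at least a 2-fold change, of which 70.8% were higher (53.0% of all calls). DESeq2, other scalings and filters, limma on log2 TPM and the fit of all HCC827 libraries gave 4655 to 6359, and no scaling moved the median over all genes by more than 0.06 on the log2 scale. At an adjusted p under 0.01, 1771 genes were called against acute drug and 2512 for the difference from the other lines. Without single libraries the calls against acute drug were 2328 to 5237. The stricter adjusted p left 4 of cell cycle brakes, 2 of the BCL2 family, 10 of interferon-stimulated genes, 1 of MHC class I, 6 of complement, 4 of chemokines, 7 of ribosome biogenesis, 7 of the respiratory chain, 4 of NRF2 targets, 4 of the STAT3 axis and 5 of genes the study discusses. A 2-fold minimum left 1 of cell cycle brakes, 0 of MHC class I, 13 of lysosomal genes, 1 of ribosome biogenesis, 0 of the respiratory chain, 2 of NRF2 targets, 2 of aldehyde dehydrogenases, 2 of the STAT3 axis and 3 of genes the study discusses. The fit of all HCC827 libraries called 12 of FOXO genes, 8 of the BCL2 family, 3 of airway secretory genes and 20 of ribosome biogenesis, and limma 6 of cell cycle brakes. Airway secretory genes had 2 calls with DESeq2, with DESeq2's size factors, with at least 10 counts in every library and with the replicate block, and 3 without a filter. Without single libraries the calls were 5 to 8 for cell cycle brakes, 2 to 5 for the BCL2 family, 2 to 4 for MHC class I, 6 to 10 for complement, 5 to 12 for chemokines, 5 to 8 for NRF2 targets, 4 to 8 for the STAT3 axis, 5 to 8 for genes the study discusses and 1 to 3 for airway secretory genes. Some near-zero values changed sign without being called: BCL2L11 was 0.0255 with library size only, 0.0178 with limma, 0.0722 without DMSO replicate 3 and 0.0122 without DTP replicate 3 (-0.102 to 0.0722 over the single libraries left out), and NF1 was -0.0741 without DMSO replicate 1 and -0.0454 without DTP replicate 2 (-0.0741 to 0.139). The cause of these changes was not tested, beyond the smaller number of samples or stricter rule itself.

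Replicate numbers were not taken as pairs: deviations of same-numbered DMSO and DTP libraries correlated at 0.0557, -0.0971 and -0.178, and not every library correlated best with its own number. With the replicate block 4460 genes were called against DMSO, 3623 against acute drug and 3669 for the difference from the other lines. With 3 libraries a group and few DMSO reads for genes silent in the controls, the size of the largest rises is the least certain value here.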
